A study of Mus musculus with 10 samples.

Results

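*Khdc1a*, *Khdc1b* and *Khdc1c* are neighbouring paralogs on mouse chromosome 1, and their 3 rows, of 24062 gene rows listed, were read in each of 10 RNA-seq libraries. They were chosen by their level in DN2b cells, selected on counts scaled to the reads on genes of a library (CPM) that were strongly higher there, so every value of these 3 genes that involves DN2b is given as a description without a test. LSK cells, the SCA-1-high, c-KIT-high and lineage-depleted fraction of mouse marrow that holds stem and progenitor cells, had been cultured with 4 growth factors on immobilized Delta1, a Notch ligand, or on human IgG. DN1 cells (KIT++CD44+CD25-) were sorted from Delta1 cultures without IL-7, and DN2a (KIT++CD44+CD25+) and DN2b (KIT+CD44loCD25+) cells from Delta1 cultures that also received IL-7, so the step from DN1 to DN2a and the addition of IL-7 cannot be told apart. The no Notch control (IgG) was LSK cells grown on IgG to day 14. Each DN stage had 2 libraries, of which replicate 1 carries the earlier and replicate 2 the later year in its label, and the control had 4, labelled D1, D2, R1 and R2. The study's wild-type mice were C57BL/6J, and the sex and age of the mice are not given in the sources used here.

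The Khdc1 proteins carry a KH domain, a fold known from RNA-binding proteins. The genes are known from oocytes and early embryos, where KHDC1B has been described as a partner of CPEB, a regulator of the translation of stored messages. *Khdc1a* has the older name *Ndg1*, for a gene downstream of the nuclear receptor Nur77 (*Nr4a1*) that was linked to the death of thymocytes. The transitions compared here, from DN1 through DN2a to DN2b, are those in which an early thymic progenitor gains CD25 and then becomes committed to the T cell lineage.

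The 3 genes lie in the same orientation on the plus strand within 36.7 kb (mm10, GENCODE vM21). *Khdc1a* is at chr1:21349641-21352200, *Khdc1c* at chr1:21368331-21370845 and *Khdc1b* at chr1:21383556-21386373. Each has 3 exons, and none overlaps another annotated gene. The interval also holds 4 annotated pseudogenes, of which 0 have a row in the files. The coding sequences of *Khdc1a* and *Khdc1c* are each 498 bases long and differ at 1 base, T416C, counted from the A of the start codon with the *Khdc1a* base first. The stretch around it, coding bases 381 to 451, shows how little sequence separates these 2 genes in a read of 36 bases, with the differing base in capitals.
Khdc1a (chr1:21350973-21351043, plus strand): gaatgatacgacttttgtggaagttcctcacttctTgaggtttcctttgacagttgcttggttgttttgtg
Khdc1c (chr1:21369607-21369677, plus strand): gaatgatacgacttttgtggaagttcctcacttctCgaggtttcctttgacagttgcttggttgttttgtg

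*Khdc1b* has a shorter coding sequence of 378 bases, 93.7% identical to the aligned part of *Khdc1a*. Its first 120 coding bases differ from those of *Khdc1a* at 3 bases, in capitals, whereas *Khdc1c* has 0 differences there. The coding bases printed are split by an intron, and the positions give the first and last of them.
Khdc1a (chr1:21350020-21350277, plus strand): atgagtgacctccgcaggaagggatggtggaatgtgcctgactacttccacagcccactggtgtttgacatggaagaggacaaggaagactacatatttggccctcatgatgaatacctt
Khdc1b (chr1:21383937-21384194, plus strand): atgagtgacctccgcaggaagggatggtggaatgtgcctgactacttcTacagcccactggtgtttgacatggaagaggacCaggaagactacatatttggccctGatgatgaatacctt

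This similarity bears on every count below, because the first 36 bases of each read had been aligned and reads with several matches were assigned to no gene. Reads with several matches made up between 16.4% and 30.1% of the reads that htseq-count tallied in a library. Along the *Khdc1a* transcript, 902 of the 1952 possible 36-base reads (46.2%) matched no GENCODE transcript of another gene. For *Khdc1c* the number was 913 of 1911 (47.8%), and for *Khdc1b* 2027 of 2201 (92.1%). Of the 1050 shared reads of *Khdc1a*, 997 were shared with *Khdc1c* and 158 with *Khdc1b*. Within the coding sequence, only the 36 reads that cover T416C separated *Khdc1a* from *Khdc1c*, out of 463. A count of *Khdc1a* or *Khdc1c* is therefore mainly a count of reads that lie outside the coding sequence or run across its ends.

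The cluster was at or near 0 in the no Notch control and in DN1, was higher in both DN2a libraries, and higher again in the mean of DN2b. *Khdc1a*, the gene with the older name *Ndg1*, had 0 counts in all 4 control libraries, a level that could have hidden up to 3 counts, or between 0.0848 and 0.145 CPM depending on the library. The DN1 replicates 1 and 2 held 3 and 8 counts, or 0.133 and 0.433 CPM. The DN2a libraries held 4936 and 979 counts, or 179.8 and 70.3 CPM, and the DN2b libraries 5085 and 2314 counts, or 330.8 and 187.3 CPM. The lowest DN2a library thus stood 162.6-fold above the highest DN1 library. Replicate 2 of DN2b stood only 1.04-fold above replicate 1 of DN2a. In bulk RNA, fewer cells that express a gene and less of its RNA per cell cannot be told apart.

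The row named *Khdc1b*, which may be that of *Khdc1c* for a reason given below, was at the floor in the control and DN1. It was above the floor in DN2a and DN2b. It had 2 counts in the control library D2, 0 in the other 3 control libraries and 0 in both DN1 libraries. It reached 81 and 19 counts in DN2a (2.95 and 1.37 CPM, replicates 1 and 2) and 112 and 31 counts in DN2b (7.29 and 2.51 CPM). The DN2a and DN2b libraries of this gene overlapped, since replicate 2 of DN2b was below replicate 1 of DN2a.

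*Khdc1c*, by its GENCODE name the near copy of *Khdc1a*, had 0 counts in all 4 control libraries and in both DN1 libraries. It had 82 and 19 counts in DN2a (2.99 and 1.37 CPM) and 82 and 66 counts in DN2b (5.33 and 5.34 CPM). Its DN2a and DN2b libraries did not overlap, and the DN2b libraries were nearly equal. The plot of the 3 genes by library shows the shared step between DN1 and DN2a.

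**Figure D1:**
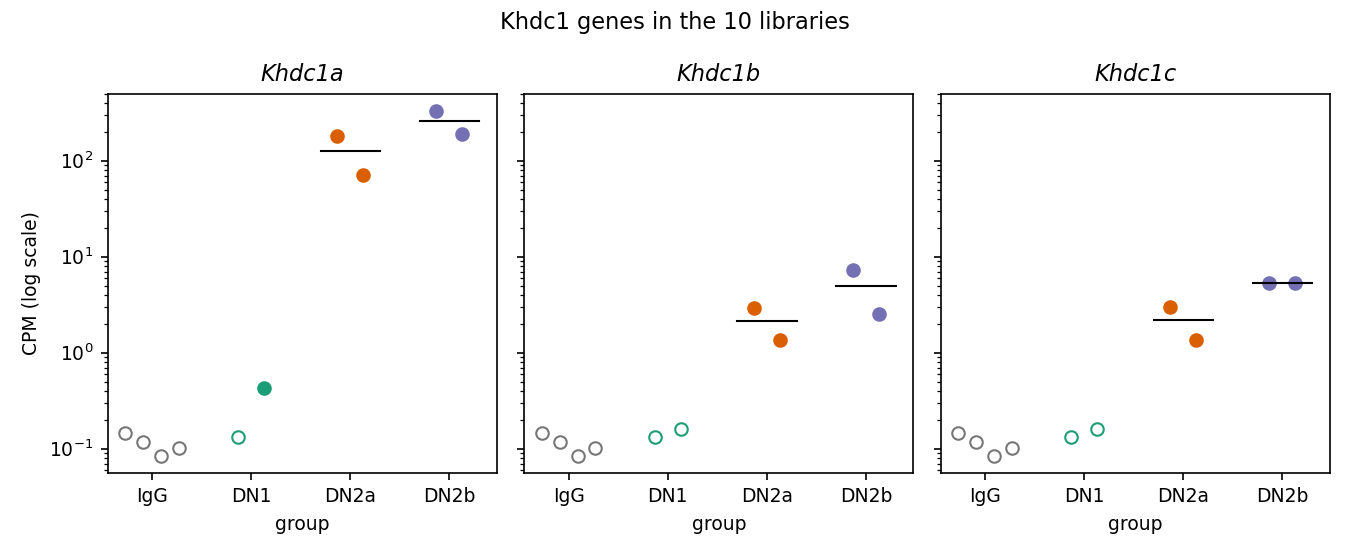
CPM of *Khdc1a*, *Khdc1b* and *Khdc1c* on a log axis in the 4 IgG, 2 DN1, 2 DN2a and 2 DN2b libraries, with 1 point per library. Open points mark libraries with 3 or fewer counts, drawn at the CPM that 3 counts would give, and black lines are group means where each library has more. For *Khdc1a*, the DN2a points lie at 179.8 and 70.3 CPM and the filled DN1 point at 0.433 CPM.

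The step from DN1 to DN2a was one that the choice of members did not use directly, although the low DN1 libraries are the same ones to which DN2b had been compared. Mean *Khdc1a* was 0.283 ± 0.212 CPM (SD, n = 2) in DN1 and 125.1 ± 77.4 CPM (SD, n = 2) in DN2a, a 442.6-fold ratio of means. In the fit of all 10 libraries the log2FC was 8.98 ± 0.85 (SE), with an adjusted p of 0.0262 in edgeR's quasi-likelihood test. This passed the threshold of 0.05, as did 24 of the 12221 genes tested that were higher in DN2a (0.196%). By log2FC, *Khdc1a* ranked 2 of 12221, and *Khdc1c* and *Khdc1b* ranked 3 and 4, although the fitted values of the latter depend on the prior count because DN1 held none of their reads. Against a floor of 3 counts per library, *Khdc1b* in DN2a exceeded its DN1 level by at least 14.6-fold and *Khdc1c* by at least 14.8-fold. Taken by year, these bounds were 22.3-fold and 22.5-fold in the earlier year, and 8.41-fold for both genes in the later year. Their adjusted p values in edgeR were 0.137 and 0.111, which missed the threshold, whereas DESeq2 gave 0.00279 and 0.00106. Every DN2a library was above every DN1 library for all 3 genes, which was true of 12.1% of the genes tested. All 3 passed the filter on low values only through their DN2a and DN2b libraries, and the low DN1 libraries were part of the contrast behind their choice, so neither this count nor the *Khdc1a* call is support, and nothing is read from their shares of all genes.

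The *Khdc1a* call was lost without some libraries, while its log2FC stayed large. Without DN1 replicate 1 the log2FC was 8.27 and the adjusted p in edgeR 0.136, without DN2a replicate 1 they were 8.21 and 0.147, and without DN2a replicate 2 they were 9.48 and 0.0902. Each of these fits leaves a stage with 1 library, which is assumed to vary like the other groups, and called only 3, 0 and 0 genes in all. Taken by year, *Khdc1a* was 162.6-fold higher in DN2a than in DN1 in the later year. In the earlier year the ratio was 1357-fold, with a counting interval of 464 to 6581 (95%, exact) because it rests on 3 DN1 reads.

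DN2a was also compared with the no Notch control. The Delta1 cultures behind DN2a had received IL-7 at day 14 and were sorted, whereas the control was LSK cells grown on IgG to day 14, so Notch ligand, IL-7, culture time and sorting cannot be told apart here. In this comparison all 3 genes passed the threshold, as did 2586 genes higher in DN2a (21.2%). Against the floor, *Khdc1a* was at least 1112-fold higher in DN2a, with an adjusted p of 0.00017 in edgeR. *Khdc1b* was at least 19.2-fold higher (adjusted p = 0.00332, edgeR) and *Khdc1c* at least 19.3-fold higher (adjusted p = 0.00197, edgeR). These bounds use group means, which DN2a replicate 1 raised. Replicate 2, the lower DN2a library, over the highest control floor gave 484-fold for *Khdc1a* and 9.39-fold for *Khdc1b* and *Khdc1c*. The members had passed the filter on low values through DN2a and DN2b and were chosen with the control among the groups compared, so that all 3 were called is no support for a pattern of the cluster. Each call was kept under each of the 18 alternative settings run for it.

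Between DN1 and the control the cluster differed little in absolute level. DN1 cells were sorted from Delta1 cultures, so Notch ligand and sorting cannot be told apart in this comparison. *Khdc1a* had 11 counts among 41125221 reads on genes in the DN1 libraries together, and 0 among 110955209 in the control. Its mean in DN1 was at least 2.51-fold above the control's floor, with an adjusted p of 0.0324 in edgeR, beside 1753 genes called higher in DN1 (14.3%). *Khdc1a* passed the filter on low values only through its DN2a and DN2b libraries, so this call is no support. The call was lost without DN1 replicate 2, which held 8 of the 11 reads (adjusted p = 0.159, edgeR), without control library R1 (0.0570) and without R2 (0.0520). The remaining DN1 library, with 3 counts, was itself at the floor, so no bound above the control was left without replicate 2. *Khdc1b* and *Khdc1c* were at the floor in both groups, so no fold was computed.

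From DN2a to DN2b, a description, mean *Khdc1a* went from 125.1 to 259.0 ± 101.4 CPM (SD, n = 2), a 2.07-fold ratio. Within the year the ratio was 1.84 in the earlier and 2.66 in the later year. *Khdc1b* had within-year ratios of 2.47 and 1.84, and *Khdc1c* of 1.79 and 3.91. All 6 of these ratios were above 1, while the log2FC values of the fit were 1.07 for *Khdc1a*, 1.20 for *Khdc1b* and 1.29 for *Khdc1c*, beside a median of 0.00 over all genes tested. With each library left out they ranged from 0.56 to 1.84, from 0.19 to 1.80 and from 0.87 to 1.92. For *Khdc1a* and *Khdc1c* both DN2b libraries were above both DN2a libraries, which was true of 14.5% of the genes tested. Over all genes, 0 passed an adjusted p of 0.05 between these stages in edgeR (0.0%), 335 had an unadjusted p under 0.05, and DESeq2 called 29.

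Against DN1, again as a description, DN2b had 916.6-fold more *Khdc1a* by the ratio of means. By year the ratio was 2496-fold in the earlier year, with a counting interval of 853.5 to 12105 (95%, exact) because it rests on 3 DN1 reads, and 432.9-fold in the later year. The bound over the DN1 floor was 33.2-fold for *Khdc1b* and 36.2-fold for *Khdc1c*. By year it was 55.0-fold (earlier) and 15.5-fold (later) for *Khdc1b*, and 40.2-fold and 32.9-fold for *Khdc1c*. Between DN2b and DN1, 124 of the 12221 genes tested were called higher in DN2b (1.01%, edgeR). In DN2b against the control the bounds were 2303-fold for *Khdc1a*, 43.5-fold for *Khdc1b* and 47.5-fold for *Khdc1c*. The lowest DN2b library over the highest control floor gave 1289-fold, 17.3-fold and 36.7-fold, and for *Khdc1a* and *Khdc1b* that library was replicate 2. Libraries of the same stage also differed from each other: *Khdc1a* was 2.56-fold higher in replicate 1 than in replicate 2 of DN2a and 1.77-fold higher in DN2b.

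Within the cluster, *Khdc1a* took nearly all assigned reads and its share changed little. Its share of the cluster's counts was 96.8% in DN2a replicate 1 (95% exact binomial interval 96.3 to 97.3) and 96.3% in DN2a replicate 2 (94.9 to 97.3). It was 96.3% (95.8 to 96.8) and 96.0% (95.1 to 96.7) in DN2b. *Khdc1b* made up between 1.29% and 2.12% and *Khdc1c* between 1.55% and 2.74% of these counts. The intervals cover counting error only. *Khdc1c* moved most, from 1.55% in DN2b replicate 1 (interval 1.24 to 1.92) to 2.74% in DN2b replicate 2 (interval 2.12 to 3.47), which are libraries of the same stage.

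Levels of different genes can be compared only per length, here per 1000 transcript positions at which a read would have matched 1 gene. On this scale *Khdc1a* had 199 CPM per 1000 unique positions in DN2a replicate 1, 78.0 in DN2a replicate 2, 367 in DN2b replicate 1 and 208 in DN2b replicate 2. *Khdc1a* stood between 35.5-fold and 62.8-fold above *Khdc1c* and between 102-fold and 168-fold above *Khdc1b*. The ratio to *Khdc1c* depends on its gene model. RefSeq ends *Khdc1c* soon after the stop codon, at position 21369743, which leaves 134 unique positions in place of 913, and with that model *Khdc1a* stood only between 5.39-fold and 9.53-fold above it. The annotation used for the counting is not given in the sources used here. RefSeq also lists *Khdc1b* as a synonym of *Khdc1c* and *Khdc1c* as a synonym of *Khdc1b*, so the rows of these 2 genes may carry each other's name. In that case the folds per position above would differ.

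The uncertainty grows if a read may differ from its target. Of the *Khdc1a* positions, 153 were more than 2 mismatches from any transcript of another gene nearby or sharing reads, against 179 for *Khdc1c* and 1683 for *Khdc1b*. A read of *Khdc1a* with a sequencing error could thus be counted for *Khdc1c*, which had between 1.61% and 2.85% as many counts as *Khdc1a* in the DN2a and DN2b libraries. How many *Khdc1c* counts arose in this way was not tested.

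**Figure D2:**
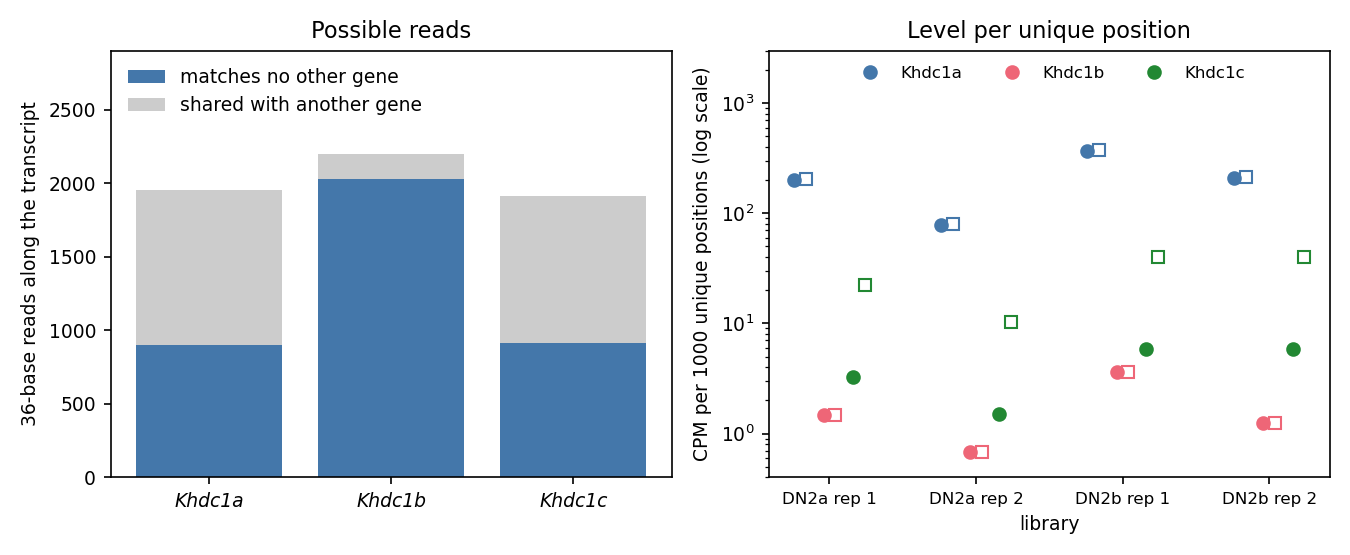
Left, the number of 36-base reads along each transcript that match no other gene (blue) or are shared (grey), with 902 unique reads for *Khdc1a*, 2027 for *Khdc1b* and 913 for *Khdc1c*. Right, CPM per 1000 unique positions on a log axis in the 4 DN2a and DN2b libraries, with filled circles for GENCODE transcripts and open squares for RefSeq spans. *Khdc1a* is highest in each library with both gene models. The RefSeq span moves it little, from 199 to 206 in DN2a replicate 1, and moves *Khdc1c* there from 3.27 to 22.3.

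The stretch before a member's start could be read for *Khdc1b* only. The 250 bases upstream of its start (chr1:21383306-21383555, plus strand, GRCm38.p6, RefSeq) are shown as the only member promoter in the table used here, with the only motif match in capitals, and they do not stand for the other members.
Khdc1b: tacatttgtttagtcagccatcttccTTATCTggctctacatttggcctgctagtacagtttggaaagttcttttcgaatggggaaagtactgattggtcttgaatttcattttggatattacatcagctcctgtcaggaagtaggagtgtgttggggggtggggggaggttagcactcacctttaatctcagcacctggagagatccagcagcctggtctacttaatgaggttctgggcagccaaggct

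This stretch holds 1 CpG. Its ratio of observed to expected CpG was 0.077, against a median of 0.373 over 32851 promoters of the same length, and 11.3% of them had a lower ratio. Both strands were searched for 8 motifs, each as 1 fixed string of letters, and other forms of these sites were not searched. The GATA motif AGATAA matched once, on the minus strand, 224 bases before the start, and 9.99% of all promoters hold this motif. There were 0 matches for the RBPJ motif TGGGAA (in 21.6% of promoters), RBPJ being the DNA-binding partner of Notch, the Nr4a motif AAAGGTCA (1.34%), the Runx motif TGTGGT (14.05%) or the E-box CAGCTG (13.0%). The Tcf1 motif CTTTGAA (4.46%), the Ets motif GAGGAA (23.3%) and the TATA box TATAAA (12.4%) also had 0 matches. A match is a string of letters and no evidence of binding, and 0 matches do not show that a factor has no site here.

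No tested gene around the cluster was called at the step between DN1 and DN2a. Of 15 genes with a row whose annotated start lies within 1 Mb of the cluster's ends, 5 were expressed highly enough to be tested, and 0 of them passed the threshold (edgeR, adjusted p from 0.739 to 0.924), beside 49 of all genes tested in either direction (0.401%). Against the control, 3 of the 5 were called higher in DN1, beside 14.3% of all genes tested, and 3 in DN2a, beside 21.2%. *Tmem14a*, 131.1 kb upstream of the *Khdc1a* start, had 4.29 ± 0.49 CPM (SD, n = 2) in DN1 and 5.83 ± 0.21 CPM (SD, n = 2) in DN2a. *Mcm3*, a subunit of the replicative helicase, had 546.2 ± 88.0 CPM in DN1 and 529.2 ± 78.6 CPM in DN2a (SD, n = 2 each). *Kcnq5*, a potassium channel gene on the other side of the cluster, had 5.32 ± 0.79 and 5.68 ± 0.20 CPM (SD, n = 2 each). *Paqr8* and *Tram2* had log2FC values of -0.44 and -0.75 in the same comparison. The T cell cytokine genes *Il17a* and *Il17f*, 618.7 and 559.0 kb upstream, had at most 1 count in any library.

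*Gm4956*, a transcribed pseudogene 51.3 kb upstream and the nearest gene with a row, was the exception among the neighbours and was singled out after its values were seen. It had 0 counts in all control and DN1 libraries and 6 counts in each DN2a and DN2b library, or between 0.219 and 0.486 CPM. It was not tested because of its low level. It shares 0 exact stretches of 36 bases on the same strand with the 3 Khdc1 transcripts. Near matches to this gene were not tallied separately, and whether its counts came from Khdc1 reads was not tested.

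**Figure D3:**
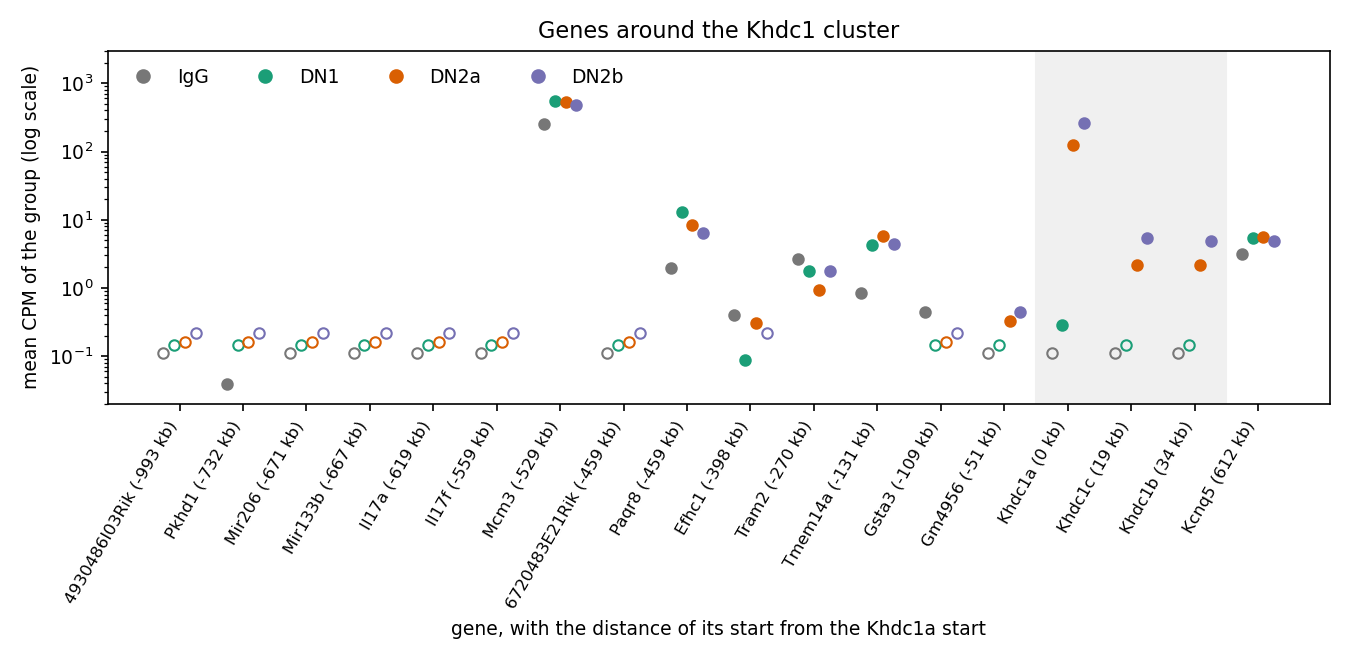
Mean CPM of each group on a log axis for the 3 Khdc1 genes (shaded) and the 15 neighbouring genes with a row, ordered by the distance of their start from the *Khdc1a* start. Open points mark groups with 3 or fewer counts in each library, drawn at the floor. The DN1 and DN2a means of *Mcm3* lie together at 546.2 and 529.2 CPM, while those of *Khdc1a* lie at 0.283 and 125.1 CPM.

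Most genes known from the same germline setting had few or no counts in the DN libraries. *Dppa5a* had 0 counts in all libraries, and *Ooep* and *Khdc3*, KH domain genes of the oocyte's subcortical complex, together reached at most 0.0809 CPM in any DN library. Of 9 oocyte genes, 7 had 3 or fewer counts in every library, among them *Zp3*, *Nlrp5* and *Figla*. *Tle6*, at 0.065 to 1.19 CPM in the DN libraries and 1.52 to 4.94 CPM in the control, was the only one tested, and its log2FC between DN2a and DN1 was -0.63 ± 1.12 (SE, adjusted p = 0.875, edgeR). *Gdf9* had at most 11 counts in a library.

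CPEB1 belongs to a family encoded by 4 genes, of which 0 were called between DN1 and DN2a (edgeR), where 0.401% of all genes tested were called. Their DN2a levels were low, with *Cpeb1* at 0.235 ± 0.028 CPM and *Cpeb4* at 3.91 ± 0.14 CPM (SD, n = 2 each). Compared with the control, 3 of the 4 were called lower in DN2a (edgeR), beside 5559 of 12221 genes called in either direction. *Cpeb4* was at 55.3 ± 21.2 CPM (SD, n = 4) in the control.

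The Nr4a nuclear receptor genes, of which *Nr4a1* is the one behind the name *Ndg1*, and genes of cell death were counted next. *Nr4a1*, which encodes Nur77, had 11.1 and 10.3 CPM in DN1, 2.91 and 3.52 CPM in DN2a and 2.54 and 13.2 CPM in DN2b (replicates 1 and 2). Its log2FC between DN2a and DN1 was -1.54 ± 0.72 (SE, adjusted p = 0.486, edgeR), and a link to *Khdc1a* was not tested. *Nr4a2* had 1.02 and 1.785 CPM in DN1, 1.02 and 0.359 CPM in DN2a and 0.520 and 5.42 CPM in DN2b. *Nr4a3* was at or under 0.971 CPM in the DN libraries. Of 11 tested genes of this list, 1 was called higher (0.196% of all genes tested) and 0 lower (0.205%) between DN1 and DN2a, with a list median log2FC of -0.33 beside -0.03 over all genes. The gene that rose was *Bcl2*, an inhibitor of apoptosis, with a log2FC of 2.83 ± 0.36 (SE, adjusted p = 0.0204, edgeR). *Bcl2l11*, which encodes the pro-apoptotic BIM, had 24.6 ± 9.8 CPM in DN1 and 24.5 ± 7.8 CPM in DN2a (SD, n = 2 each).

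Across the 10 libraries, the genes most like *Khdc1a* were found by Pearson's r of log2(TMM-scaled CPM + 0.5) among 9039 genes compared that averaged at least 5 CPM in DN2b. The 8 with the largest r outside the cluster were *Lif* (r = 0.996), *Cd247* (0.989), *Pdcd1* (0.988), *C1qtnf1* (0.985), *Stxbp6* (0.985), *Tnfsf11* (0.981), *Fam20a* (0.980) and *8430426J06Rik* (0.979), with Spearman's rho from 0.832 to 0.960. The other members, *Khdc1c* and *Khdc1b*, were left out of this ranking and had r = 0.982 and 0.972 with *Khdc1a*. The median r of the genes compared was 0.192, and these values are a description over libraries that share their groups. As background, *Lif* encodes a secreted cytokine, *Cd247* the CD3 zeta chain, *Pdcd1* the inhibitory receptor PD-1 and *Tnfsf11* the cytokine RANKL.

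Since they were picked for this likeness, their levels are given without a test. *Lif* had 0.405 ± 0.114 CPM in DN1 and 8.49 ± 2.26 CPM in DN2a (SD, n = 2 each). *Cd247* had 0.717 ± 0.173 and 17.9 ± 4.9 CPM (SD, n = 2 each). *Tnfsf11* went from 1.13 ± 1.54 CPM (DN1) through 45.7 ± 3.3 (DN2a) to 94.2 ± 37.5 CPM (DN2b; SD and n = 2 for each stage). *8430426J06Rik* had 0 and 0.0541 CPM in DN1.

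**Figure D4:**
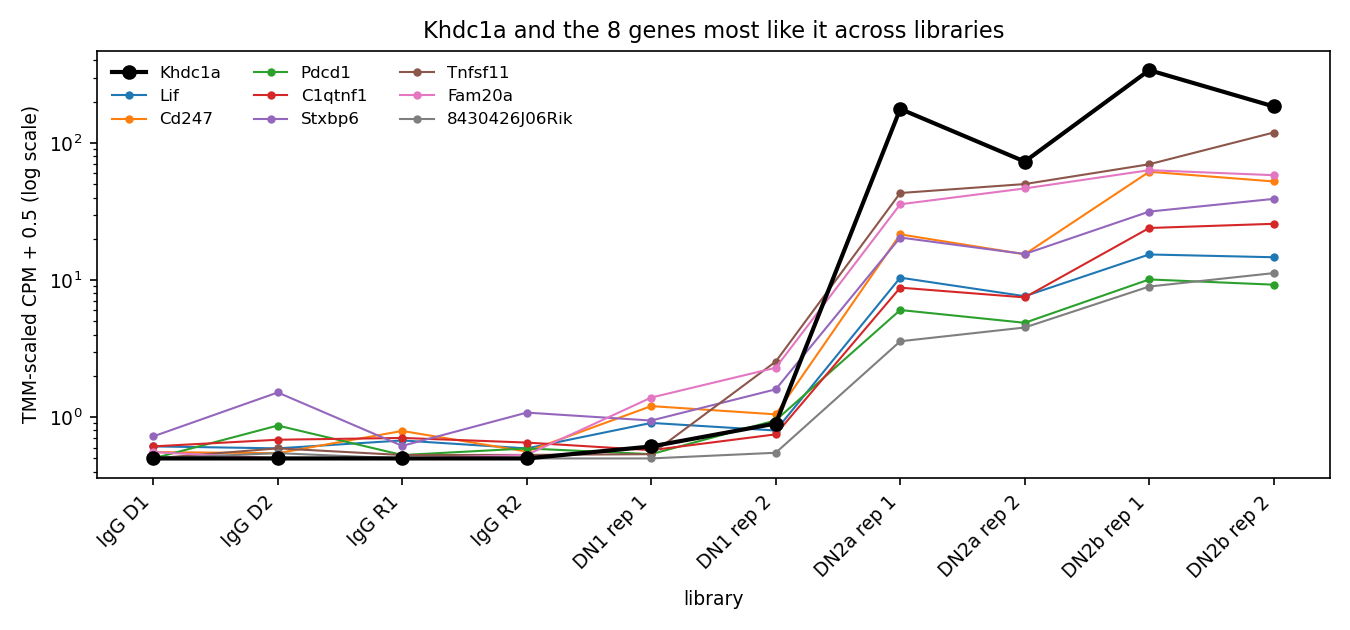
TMM-scaled CPM + 0.5 on a log axis for *Khdc1a* (black) and the 8 genes outside the cluster with the largest r to it, in each of the 10 libraries. Lines join libraries only to guide the eye, since libraries of a group have no order. All 9 curves stay low in the IgG and DN1 libraries and are high in DN2a and DN2b, where *Khdc1a* ranges from 70.3 to 330.8 CPM before TMM scaling.

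The labels of the stages were checked against their sort markers and against other cell types. *Il2ra*, which encodes CD25, was at 27.6 and 20.6 CPM in DN1, at 1651 and 1133 CPM in DN2a, and at 2121 and 1757 CPM in DN2b. *Cd44* was at 155.7 ± 24.2, 48.8 ± 5.2 and 12.1 ± 1.5 CPM in DN1, DN2a and DN2b (SD, n = 2 each), and *Kit* was at 392.1 ± 65.0, 190.7 ± 20.1 and 152.9 ± 36.6 CPM. Of 10 early T cell genes, 2 (*Cd3e* and *Cd3g*) were called higher in DN2a than in DN1 (0.196% of all genes tested) and 0 lower (0.205%). Their summed level was 388.8 to 503.1 CPM in DN1, 1366 to 1833 in DN2a, 2842 to 3657 in DN2b and 2.18 to 5.02 in the control. Their sum was lowest in the control and highest in DN2b, and it does not show each gene. Of the 10, 9 were already called higher in DN1 than in the control (edgeR), beside 14.3% of all genes tested. Of the later T cell markers, *Cd4* and *Cd8a* stayed at or under 0.824 CPM and *Cd8b1* at or under 2 counts in every library. *Cd5*, the only one tested, was at 0.311 to 0.751 CPM in the control. It was called higher in DN1 (2.52 and 2.33 CPM; adjusted p = 0.0118), DN2a (7.36 and 8.05 CPM; 0.000486) and DN2b (5.98 and 5.02 CPM; 0.000846) by edgeR, and its adjusted p between DN2a and DN1 was 0.276.

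Markers of other cells moved with the groups too, and their part in the Khdc1 results was not tested. The 6 myeloid markers summed to 19524 to 50662.5 CPM in the control, 99.5 to 1867 CPM in DN1, 6.52 to 8.69 in DN2a and 2.99 to 4.49 in DN2b. *S100a8* and *Csf1r* were called lower in DN2a than in DN1, as were 25 of all genes tested (0.205%). DN1 replicate 1 held most of the DN1 signal, with 615 CPM of the neutrophil gene *S100a8* against 14.8 CPM in replicate 2. The 4 NK cell markers summed to 0.424 to 1.34 CPM in the control, 227 to 397 CPM in DN1, 840 to 3320 in DN2a and 2588 to 4057 in DN2b, almost all of it in the DN libraries from *Gzma*, a granzyme gene. The defining NK gene *Ncr1* had 0 counts in 3 of the 6 DN libraries and at most 1.13 CPM in the others. *Klrd1* was at 1.24 to 6.05 CPM in the DN libraries, against 0.242 to 0.633 CPM in the control, and *Klrb1c* at 0.065 to 4.89 CPM, against 0.0337 to 0.593 CPM. The 4 B cell markers summed to at most 0.703 CPM outside DN2b replicate 2, which had 4.61 CPM, nearly all of it *Ebf1*, and *Pax5* had at most 1 count in any library.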

How the data were processed

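RNA-seq was read in 10 mouse libraries of 4 groups. Per the study's methods, 36 bases of each read (read end 1) were mapped to mm10 by TopHat and tallied by htseq-count, intersection-strict. The submitters' processing notes name TopHat2 2.12, Cufflinks 2.2.1 and HTSeq 0.6.1p1. The authors deposited these counts unscaled, by gene symbol, and each file also has 5 summary lines, which held 20.5% to 41.0% of tallied reads and were left out. The kit was stranded, and the strand setting and annotation of the counting are not given in the sources used here. Reads on genes ranged from 12354635 to 35367925. The study describes replicates as independent LSK isolates.

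Levels are CPM over gene rows. Genes reaching 1 CPM in 2 or more libraries (12221 of 24062) were fitted with edgeR 4.0.16 (R 4.3.3, TMM, quasi-likelihood test, 4 groups, prior count 0.125, common dispersion 0.189), with Benjamini-Hochberg adjustment over all tested genes. The SE is the log2FC divided by the square root of F. At 3 counts or fewer in every library a group was at the floor (0.0848 to 0.243 CPM), and folds are bounds against it. Alternatives were DESeq2 1.42.0, other scaling and filters, subsets of libraries, a replicate block and each library left out. On simulated counts with 200 changed genes the test recovered 37 in DN2a versus DN1 and made 3 false calls. The simulation used 1 common dispersion and no other difference between groups, unlike these data. Read uniqueness was computed against GENCODE vM21 transcripts (Biopython 1.88), and counting per unique position was added after seeing the data. The named genes were the members, neighbours within 1 Mb with a row, fixed lists and the 8 genes most like *Khdc1a*. Members and lists were chosen with earlier results of these data known. The values of 1 listed gene are not reported here.

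Same-year libraries had deviations from their group means that correlated at 0.072 (DN1 and DN2a), 0.222 (DN1 and DN2b) and 0.397 (DN2a and DN2b) across genes. Per the study's methods, the DN stages came from each LSK replicate, DN1 without and DN2a and DN2b with IL-7. The main fit took no account of this, and the year was not taken to pair DN1 with DN2a. A fit with the year as a replicate block is given below.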

Additional observations from a re-analysis of the deposited data

Results flagged for a closer look

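Among the 4 no Notch control libraries, 1 library lay far from the other 3 for 8 of 54 genes examined (14.8%), while chance alone flags about 1 in 20 groups. That rate does not hold for counts such as 0, 0, 0 and 1 or 2, where any count flags its library, as it did for *Khdc1b* and *8430426J06Rik*. *Khdc1b* was the only member among them, with 0.0791 CPM (2 counts) in library D2 and 0 in the others, which is under the floor. In the same library, *Klrb1c* was at 0.593 CPM against 0.0337 to 0.0848 in the others, *Klrd1* at 0.633 against 0.242 to 0.270 and *8430426J06Rik* at 0.0395 (1 count) against 0. In library R1, *Cd3d* was at 1.92 CPM against 0.202 to 0.388 and *Cd247* at 0.283 against 0.0395 to 0.0674. *Ptcra* was at 0.337 CPM in R2 against 0.424 to 0.436, and *Gata3* at 0.0969 CPM (2 counts) in D1 against 0.198 to 0.202. DN groups, with 2 libraries each, were not examined in this way.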

How the results depend on the processing

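Alternatives were run for *Khdc1a* in DN1 versus the control and in DN2b versus DN1, and for the 3 members in DN2a versus DN1, DN2a versus the control and DN2b versus DN2a, and no direction was reversed in these. The *Khdc1a* call between DN1 and the control had adjusted p values of 0.0821 with only those groups fitted, 0.112 with only control libraries D1 and D2, 0.0735 with only R1 and R2, and 0.0267 to 0.159 with each library left out. Its call between DN2a and DN1 ranged from 0.0208 to 0.147 with each library left out, while *Khdc1b* and *Khdc1c* passed only in DESeq2 (0.00279 and 0.00106) and ranged from 0.130 to 0.591 and 0.0893 to 0.523. The log2FC of DN2b versus DN2a ranged from 0.56 to 1.84 for *Khdc1a*, 0.19 to 1.80 for *Khdc1b* (lowest without DN2b replicate 1) and 0.87 to 1.92 for *Khdc1c*, and that of *Khdc1a* in DN2b versus DN1 from 9.34 to 11.13, with each library left out.

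Genes called between DN2a and DN1 (49) became 467 in DESeq2, 101 without a filter, 22 with only the groups compared, 19 with control libraries D1 and D2, 32 with the 6 DN libraries, and 0 to 230 with each library left out. Those between DN2b and DN1 (233) became 820 in DESeq2, 80 with only the groups compared, 97 with D1 and D2, and 50 to 385. Those between DN2b and DN2a (0) became 29 in DESeq2, 1 without a filter, and 0 to 1. Those between DN1 and the control (3834) became 2299 with D1 and D2 and 1847 to 4167, and those between DN2a and the control (5559) 2682 to 6043. Listed genes called became 16 in DESeq2, 2 with only the groups compared and 0 to 9 between DN2a and DN1 (6), and 6 with only the groups compared, 8 with D1 and D2 and 6 to 14 between DN2b and DN1 (13). The cause of these changes was not tested. With the year as a replicate block in the 6 DN libraries, *Khdc1a* had an adjusted p of 0.0203 between DN2a and DN1, against 0.0117 without the block, and 67 against 32 genes were called. The block changed no member's call.

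Per unique position, chosen after seeing the data, the *Khdc1a* share was 97.7% and 97.3% in DN2a and 97.5% and 96.7% in DN2b, and with RefSeq spans 89.7% and 88.1% in DN2a and 89.7% and 83.9% in DN2b. A scaling by positions unique in the genome was not run, since only transcripts were used here. Depth limits *Khdc1b*, *Khdc1c* and the DN1 level of *Khdc1a*, which rest on at most 112 counts in a library.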
